A study of Homo sapiens with 8 samples.

Results

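Structured noncoding RNAs made by RNA polymerase III were followed through the transcript models of 8 RNA sequencing libraries from K562 cells. The members were chosen by name (RN7SK, RN7SL1, RN7SL2, RMRP, RPPH1, VTRNA1-1, VTRNA1-2 and VTRNA1-3), with results of these data in view, and VTRNA1-3 was among them for its pattern across libraries. A model carrying the name was found for 5 of the 8 members, among 23579 genes in all: RMRP, RPPH1 and the 3 vault RNAs. RN7SK, RN7SL1 and RN7SL2 are not analysed here.

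K562 is an established human erythroleukaemia line. The cells carried a transgene for SF3B1, a subunit of the U2 small nuclear ribonucleoprotein, that doxycycline switches on. In the K700E_induced group the transgene was SF3B1-K700E and the cells received 1 ug/ml doxycycline for 48 h, and in the K700E_uninduced group the same line was left without induction. The WT_induced and WT_uninduced groups were the matching pair with the wild-type transgene. All 4 groups grew in medium with 10% serum, and each had 2 libraries, numbered 1 and 2 by the labels. Libraries were made from total RNA after an RNase H step against ribosomal RNA, so RNAs without a poly(A) tail were kept. The labels do not give the transgene's integration, whether each line was 1 clone, or whether replicates were separate cultures, so the p-values below measure the spread between these libraries, which may be technical.

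RMRP is the RNA of RNase MRP, which cuts precursor ribosomal RNA, and RPPH1 is the RNA of nuclear RNase P, which trims the leader from precursor transfer RNA. These enzymes share most of their proteins. The vault RNAs are short RNAs that bind the vault particle and other proteins, and RNA polymerase III makes them from promoters inside the gene, through sequence elements called the A and B boxes. RMRP and RPPH1 have promoters upstream of the transcript instead. Such RNAs are compact, stable and short, which bears on any value that is divided by length.

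The sequences below are shown because the length of each RNA and its likeness to its relatives bear on every value that follows. They are the GENCODE 29 transcripts of the same names, written as DNA from 5′ to 3′. In RMRP and RPPH1 the capitals mark the longest run of bases that both contain. In the vault RNAs the capitals mark the B box as searched (GTTCGANNC) and a 3′ end of 4 T residues, where present. RPPH1 is shown for its first 300 of 333 nt.
RMRP: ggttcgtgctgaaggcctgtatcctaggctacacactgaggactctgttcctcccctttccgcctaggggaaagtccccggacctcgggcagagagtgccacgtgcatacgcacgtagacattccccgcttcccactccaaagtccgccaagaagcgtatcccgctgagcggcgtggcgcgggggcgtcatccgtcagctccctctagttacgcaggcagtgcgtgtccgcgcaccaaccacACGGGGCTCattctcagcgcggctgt
RPPH1: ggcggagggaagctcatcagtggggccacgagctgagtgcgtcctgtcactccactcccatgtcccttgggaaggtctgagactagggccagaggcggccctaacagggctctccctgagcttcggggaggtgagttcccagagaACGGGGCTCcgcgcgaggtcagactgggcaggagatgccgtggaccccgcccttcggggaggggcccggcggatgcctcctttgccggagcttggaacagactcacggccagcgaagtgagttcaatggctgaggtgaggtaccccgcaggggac
VTRNA1-1: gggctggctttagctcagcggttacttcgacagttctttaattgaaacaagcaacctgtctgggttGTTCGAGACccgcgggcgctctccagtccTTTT
VTRNA1-2: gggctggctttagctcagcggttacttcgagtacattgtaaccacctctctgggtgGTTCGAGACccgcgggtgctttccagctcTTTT
VTRNA1-3: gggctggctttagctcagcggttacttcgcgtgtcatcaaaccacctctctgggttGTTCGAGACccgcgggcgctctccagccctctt

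The deposited models, on hg19, were close to these in length. RMRP was 268 nt at chr9:35657748-35658015 on the minus strand, the same length as its GENCODE transcript. RPPH1 was 341 nt at chr14:20811230-20811570 on the minus strand, against 333 nt in GENCODE. VTRNA1-1 was 98 nt at chr5:140090861-140090958, VTRNA1-2 was 88 nt at chr5:140098511-140098598 and VTRNA1-3 was 88 nt at chr5:140105744-140105831, all on the plus strand and each 1 nt shorter than in GENCODE. All 5 were annotated as single-exon noncoding genes, and no other transcript of any library overlapped them.

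RMRP and RPPH1 had no run longer than 9 nt in common, and a global alignment left 45.8% of columns identical. The vault RNAs were much closer to each other. VTRNA1-2 and VTRNA1-3 were identical in 77 of 89 alignment columns (86.5%), with a longest shared run of 29 nt, and VTRNA1-1 and VTRNA1-3 in 79 of 99 columns (79.8%), with a shared run of 34 nt. All 3 vault RNAs held the B box letters once on the transcribed strand and not on the other. Among 1768 GENCODE transcripts of 80 to 100 nt, a length range that takes in the 3 vault RNAs themselves, 6 (0.339%) held these letters on either strand. VTRNA1-1 and VTRNA1-2 ended in 4 T residues and VTRNA1-3 in 2, as annotated.

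RMRP and RPPH1 were the 2 highest of all reference models of 200 nt or more in every library. RPPH1 was first in 5 libraries and RMRP in 3. The values are FPKM, fragments per kilobase of model and per 1000000 fragments, as deposited, each with the interval that the authors' software gave it. RMRP stood at 101939 and 97146 FPKM in K700E_induced (replicates 1 and 2), and at 110032 and 90059 in K700E_uninduced. It stood at 73791 and 98998 FPKM in WT_induced, and at 65189 and 108549 in WT_uninduced. The lowest 2 values were those of replicate 1 in both WT groups, and every group overlapped every other. The group means were 99543 ± 3389, 100046 ± 14123, 86394 ± 17825 and 86869 ± 30660 FPKM (SD, n = 2 each) in that order.

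RPPH1 stood at 102158 and 91087 FPKM in K700E_induced and at 121676 and 76791 in K700E_uninduced. In WT_induced it stood at 106153 and 102059 FPKM, and in WT_uninduced at 93917 and 105340. Both the highest and the lowest value of RPPH1 came from K700E_uninduced, and again every group overlapped every other. Its group means were 96623 ± 7828, 99233 ± 31739, 104106 ± 2895 and 99629 ± 8077 FPKM (SD, n = 2 each). The ratio of the highest to the lowest library was 1.69 for RMRP and 1.58 for RPPH1.

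**Figure D1:**
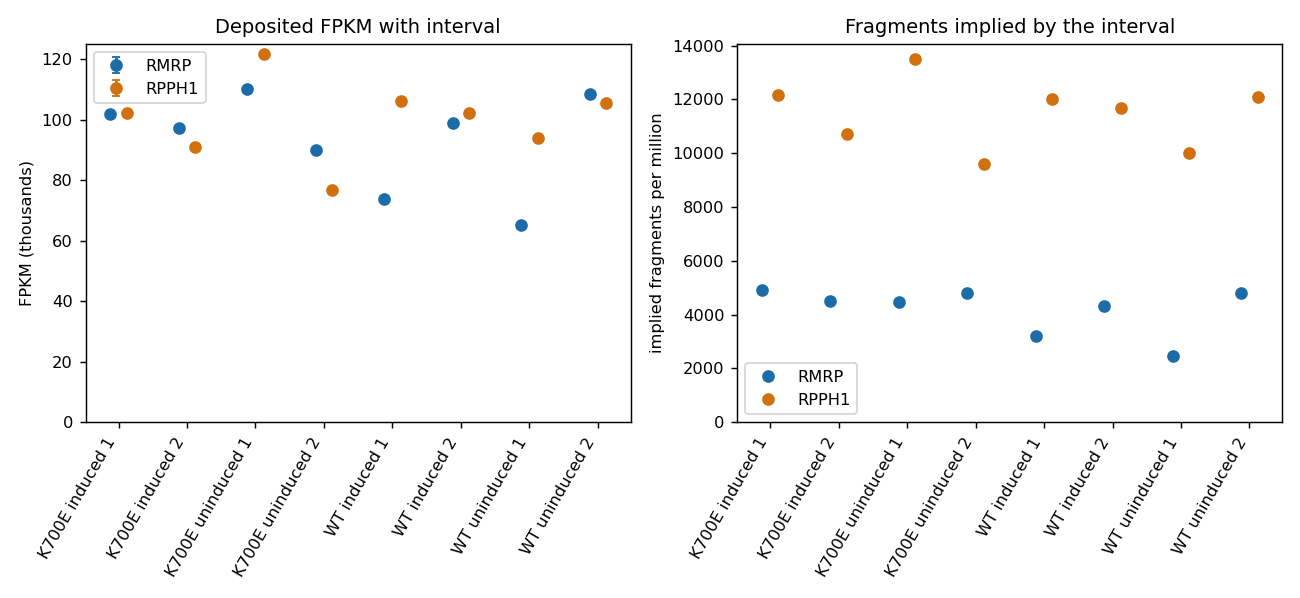
Left, deposited FPKM (in units of 1000) of RMRP and RPPH1 in each of the 8 libraries, with the deposited interval, which is narrower than the points. Right, the fragments per 1000000 that those intervals imply; the members lie close together on the left (RMRP 65189 to 110032 FPKM, RPPH1 76791 to 121676) and apart on the right (RMRP 2461 to 4927, RPPH1 9601 to 13511).

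The deposited intervals were narrow for these members. The half-width was 0.525% to 0.735% of the value for RMRP and 0.325% to 0.414% for RPPH1. If the half-width is 2 SDs of a count, RMRP rested on 74111 to 144930 fragments per library and RPPH1 on 232894 to 379866. These are the counts that would give such intervals, not read counts from the files. The interval covers the estimate within a library only: replicates of WT_uninduced differed in RMRP by far more than either interval.

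RMRP and RPPH1 lay further apart in fragments than in FPKM. Long reference models gave an implied depth of 22.0 to 31.6 times 1000000 fragments per library. On that scale RPPH1 took 9601 to 13511 fragments per 1000000 fragments (FPM) and RMRP took 2461 to 4927. The ratio of RMRP to RPPH1 was 0.246 to 0.501 in fragments and 0.694 to 1.17 in FPKM. FPKM divides by the number of positions at which a fragment can start, and the values together imply 37.7 to 53.4 nt for RMRP, whose model is 268 nt, and 106 to 125 nt for RPPH1, whose model is 341 nt. This divisor differed between libraries by 1.41-fold for RMRP and by 1.18-fold for RPPH1.

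The replicate 1 libraries of the WT line stood apart in RMRP on either scale. Their ratio of RMRP to RPPH1 was 0.695 (WT_induced) and 0.694 (WT_uninduced) in FPKM, and 0.267 and 0.246 in fragments. In the other 6 libraries the FPKM ratio lay between 0.904 and 1.17 and the fragment ratio between 0.330 and 0.501. In FPM RMRP was 4927 and 4497 in K700E_induced and 3212 and 4327 in WT_induced, a scale added after the data were seen. The deposited names give replicates 1 and 2 different sequencing lanes, and RMRP in FPKM was higher in K700E_induced than in WT_induced within the first lane and lower within the second.

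The design asks whether induction of either transgene, or the line, moved these RNAs. No comparison moved RMRP or RPPH1 past the threshold of an adjusted p of 0.05 in limma over 11385 genes. K700E induction (K700E_induced against K700E_uninduced) gave RMRP a log2 difference of 0.0026 (95% interval -0.92 to 0.93; limma adjusted p = 1) and RPPH1 one of 0.0001 (-0.88 to 0.88; adjusted p = 1), and quantile normalization moved these to 0.58 and 0.88. WT induction gave 0.02 (-0.91 to 0.94) for RMRP and 0.06 (-0.82 to 0.94) for RPPH1, both with a limma adjusted p of 1, and quantile normalization turned them to -0.87 and -0.29. These differences are of log2(scaled FPKM + 0.5). Quantile normalization keeps only a gene's rank within each library, so its values follow rank rather than the size of a change in FPKM. The intervals do not exclude a change of nearly 1 log2 unit in either direction, so the libraries do not show that the levels were equal.

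The line comparisons lay further from 0 for RMRP. RMRP was higher in the K700E line by 0.21 on the log2 scale when induced (-0.71 to 1.14; limma adjusted p = 0.99) and by 0.23 when uninduced (-0.69 to 1.16; adjusted p = 0.985), neither past the threshold, and quantile normalization moved them to 0.87 and -0.58. Without replicate 1 of the WT group in question, the RMRP differences were 0.00902 (induced) and -0.13 (uninduced). RPPH1 differed by -0.11 (-0.99 to 0.76; 0.29 with quantile normalization) and -0.05 (-0.93 to 0.82; -0.88 with quantile normalization), neither past the threshold in limma (adjusted p = 1). How far the inductions differed, tested as an interaction term, came to -0.02 (-1.32 to 1.29) for RMRP and -0.06 (-1.30 to 1.18) for RPPH1, and neither passed (limma adjusted p = 0.999). Quantile normalization turned both, to 1.45 and 1.17.

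**Figure D2:**
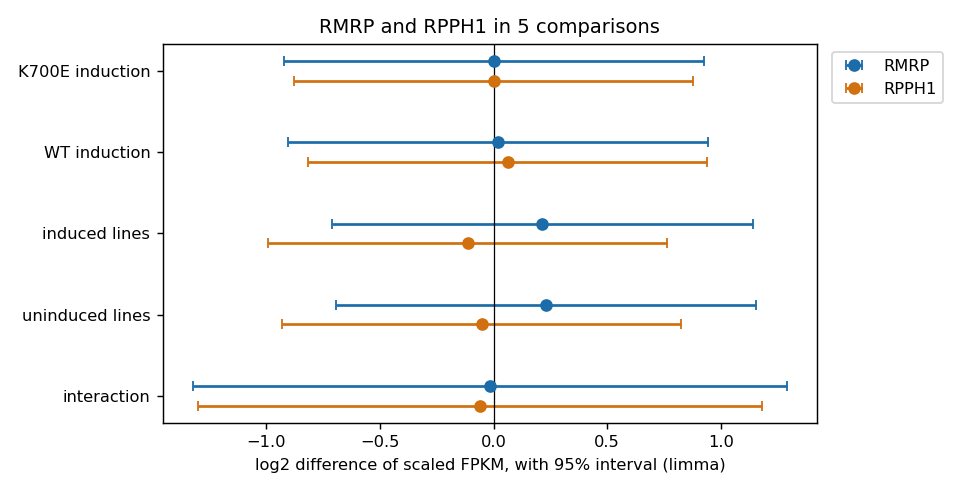
Log2 differences of scaled FPKM of RMRP and RPPH1 (points) with 95% intervals from limma (bars) in 5 comparisons. Every interval holds 0. The difference farthest from 0 is 0.23 for RMRP between the uninduced lines. Quantile normalization, which keeps only ranks, turns it to -0.58.

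Of the 8 members 3 passed the filter of a mean of 1 FPKM, namely RMRP, RPPH1 and VTRNA1-3, and VTRNA1-3 passed only through WT_induced. Of these 3, 0 passed the threshold in K700E induction, where 0.0264% of all genes did, and 0 between the uninduced lines, where 0.00878% did. The member past the threshold was VTRNA1-3 in WT induction, between the induced lines and in the interaction, where 0.0176%, 0.0351% and 0.0264% of all genes passed. It was chosen for this pattern, so nothing is read from those calls. The WT induction count fell from 1 to 0 without any 1 of the 6 libraries outside WT_induced, as it did with the compared groups fitted alone.

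VTRNA1-3 was listed at 567932 FPKM in WT_induced replicate 1, with a deposited interval of 462921 to 672942. In WT_induced replicate 2 it was listed at 32104 FPKM, with an interval of 0 to 69174. It was listed at 0 in both K700E groups and in WT_uninduced, in all 6 libraries. VTRNA1-1 and VTRNA1-2 were listed at 0 in all 8 libraries. As other short RNAs that cells need were also listed at 0, a 0 here says only how the model was listed. The value of VTRNA1-3 in WT_induced replicate 1 was above every reference model of 200 nt or more in that library, RMRP and RPPH1 included.

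**Figure D3:**
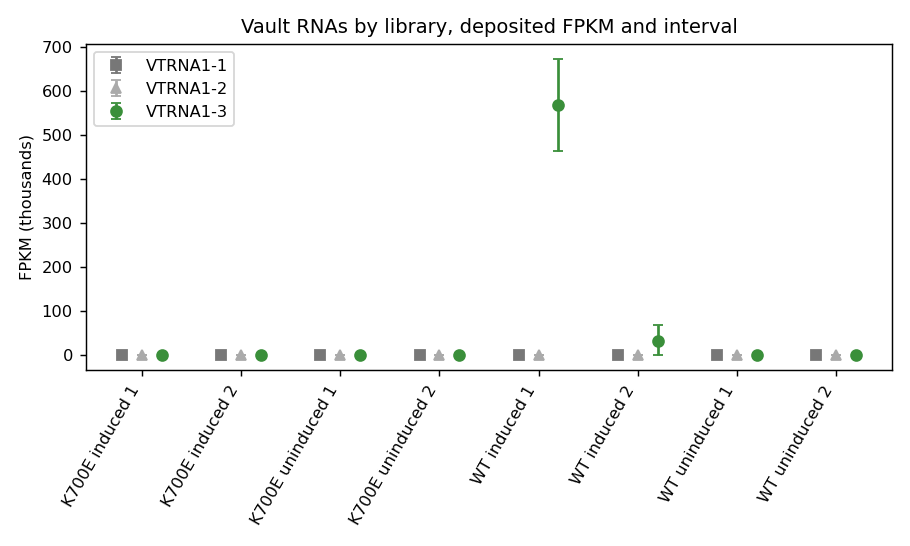
Deposited FPKM (in units of 1000) of the 3 vault RNAs in each library, with the deposited interval as bars. VTRNA1-3 is at 567932 FPKM in WT_induced replicate 1 and at 32104 in replicate 2, whose interval reaches 0; all other points are listed at 0.

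The number of fragments behind VTRNA1-3 was small. Its intervals imply 117 fragments in WT_induced replicate 1 (95% Poisson interval 96.8 to 140) and 3 in replicate 2 (0.619 to 8.77), whole numbers in both cases to within 0.01. Only 22.7% of 194 values of unspliced reference models under 150 nt came out whole at that tolerance, so the number is not a general reading of the authors' counts. This was 3.70 and 0.136 FPM, against 3212 and 4327 for RMRP in the same libraries. The replicates of the one group in which VTRNA1-3 was above 0 differed 27.2-fold in FPM (exact conditional 95% interval 9.07 to 134) and 17.7-fold in FPKM. These intervals cover counting error only.

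One fragment of VTRNA1-3 was worth 4854 FPKM in WT_induced replicate 1 and 10701 FPKM in replicate 2. One fragment of RMRP was worth 0.703 to 1.04 FPKM over the 8 libraries, and 1 fragment of RPPH1 0.279 to 0.397. The divisor implied for VTRNA1-3 was 0.00652 and 0.00425 nt, far under a single base. The same dependence ran through all unspliced reference models: the median worth of 1 fragment was 17779 FPKM under 100 nt, 1010 from 100 to under 200 nt, 0.906 from 200 to under 300 nt, 0.238 from 300 to under 500 nt and 0.0204 at 500 nt and over. VTRNA1-3 belongs to the first of these classes, RMRP to the third and RPPH1 to the fourth.

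**Figure D4:**
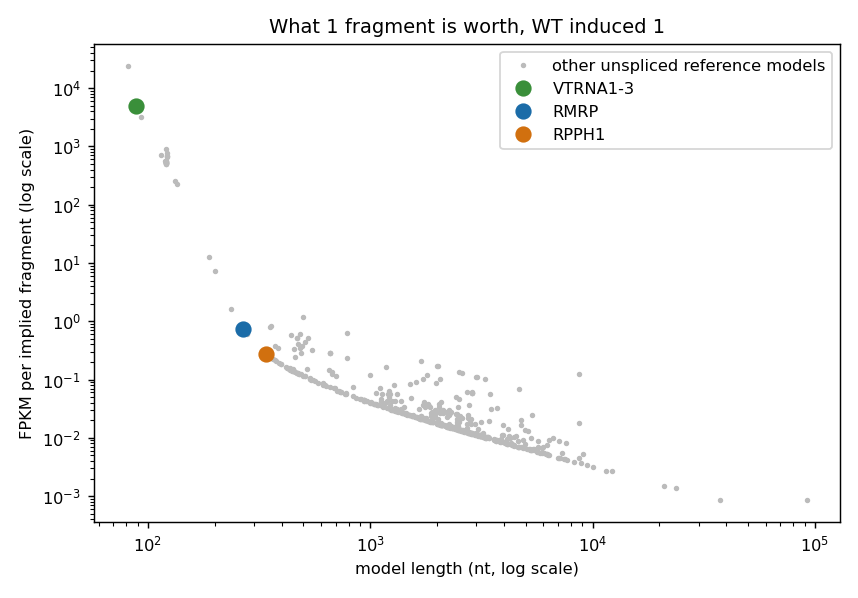
FPKM per implied fragment against model length for unspliced reference models above 0 in WT_induced replicate 1, both axes logarithmic, each grey point 1 model. VTRNA1-3 (4854 FPKM per fragment), RMRP (0.727) and RPPH1 (0.279) lie along the lower edge formed by the other models.

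Zeros were common among models as short as the vault RNAs. Of 1376 unspliced reference models under 100 nt, 16 (1.16%) were above 0 in at least 1 library, and 15 of those 16 (93.8%) were at 0 in another. From 100 to under 200 nt, 76 of 356 (21.3%) were above 0 somewhere and 71 of those 76 (93.4%) were at 0 in another library. From 200 to under 300 nt, the class of RMRP, 8 of 25 (32%) were above 0 and 5 of them in all 8 libraries. From 300 to under 500 nt, the class of RPPH1, 68 of 100 were above 0 and 31 in all 8. Among models above 0 in all 8 libraries the median log2 ratio of the highest to the lowest library was 3.23 from 200 to under 300 nt and 1.44 from 300 to under 500 nt. The same ratio was 0.755 for RMRP and 0.664 for RPPH1, each of which is itself in its class. The members rest on far more fragments than most models of these classes. Values above 0 had a median of 255 and 1221 implied fragments in the 2 classes. RMRP had at least 74111 in every library and RPPH1 at least 232894.

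All-or-none listing also occurred in the other groups and in longer models. Between 3 and 6 of the 11385 genes tested were above 0 in both libraries of a given group and listed at 0 in the other 6, and WT_induced had 6. VTRNA1-3 was the only one of those 6 under 200 nt. In K700E_induced 1 such gene was under 200 nt, MIR4461, which is named after its values were seen.

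Other short noncoding RNAs were read from fixed lists of 35 names, of which 15 had a row; the rest are not analysed here. Of the 15, 9 were listed at 0 in all 8 libraries. Among them were the Y RNAs RNY4 and RNY5, which bind the Ro protein, VTRNA2-1, a vault RNA relative, and RNU12 and RNU6ATAC, small nuclear RNAs of the minor spliceosome. The longest models of RNY4 and RNY5 were only 34 and 46 nt. The RNAs above 0 in all 8 libraries were BCYRN1, SNAR-A1, SCARNA2 and TERC. SCARNA2, a guide RNA of the Cajal body, ranged from 1522 to 2478 FPKM. TERC, the telomerase RNA, was at 157 and 249 FPKM in K700E_induced and at 388 and 495 in WT_induced. That difference was -1.15 on the log2 scale (SE 0.33; limma adjusted p = 0.798) and did not pass.

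BCYRN1, an RNA polymerase III transcript of 191 nt derived from an Alu element, was higher in the K700E line in all libraries, without passing the test. With induction it stood at 10103 and 13223 FPKM in the K700E line and at 6006 and 5673 in the WT line, and without induction at 18176 and 8149 FPKM in the K700E line and 4682 and 7769 in the WT line. The log2 differences were 0.98 (SE 0.40; limma adjusted p = 0.944) and 1.00 (SE 0.40; limma adjusted p = 0.971). In FPM the order was the same, 25.7 to 32.9 in the K700E line and 10.6 to 16.7 in the WT line, from 280 to 958 implied fragments per library. Neither induction separated its groups in FPKM, with log2 differences of -0.07 for K700E and -0.05 for WT. SNAR-A1, a 122 nt RNA polymerase III transcript with near-identical copies among which reads may be split, stood at 1587 and 3519 FPKM in WT_induced and at 123 and 287 in WT_uninduced. In the K700E line it stood at 353 and 344 FPKM with induction and at 1847 and 157 without, a log2 difference of -0.62. The WT difference was 3.64 on the log2 scale (SE 0.98; limma adjusted p = 0.997) and did not pass. The intervals of SNAR-A1 imply no more than 3.11 fragments in any library. In K700E_uninduced replicate 2 they imply 0.04, less than a single read, so its number of reads cannot be taken from them. Its FPKM is very uncertain by these intervals.

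The protein partners and the RNA polymerase III machinery were read from 7 fixed lists of 81 genes, of which 80 were tested. In each of the 5 comparisons 0 of the 80 passed the threshold with limma. At an unadjusted p under 0.05 K700E induction had 5, WT induction had 3, the induced lines had 6, the uninduced lines had 1 and the interaction had 3, where all genes gave 4.7%, 4.3%, 5.26%, 4.64% and 4.25%. The median log2 difference of the 80 was 0.05 in K700E induction and -0.04 in WT induction, beside -0.01 and 0.01 over all genes.

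The mRNAs for proteins of RNase P and RNase MRP were low next to RMRP and RPPH1 on the FPKM scale. RPP21, a protein of RNase P, ranged from 0 (WT_induced replicate 2) to 168 FPKM (K700E_induced replicate 1), and POP7, which is in both enzymes, from 24.1 to 84.7. The other 9 had means between 2.91 and 18.6 FPKM. In K700E induction 8 of the 11 had a log2 difference above 0, with a median of 0.11, and in WT induction 8 of 11, with a median of 0.43, and none passed. Over all genes 5512 and 5726 of 11385 lay above 0. The first median turned to -0.26 without K700E_induced replicate 2 and to -0.18 without K700E_uninduced replicate 2, and the second lay between 0.23 and 0.56 under the alternatives. Of the vault proteins, PARP4, the vault poly(ADP-ribose) polymerase, ranged from 6.52 to 13.8 FPKM and TEP1 from 0.904 to 4.70. MVP, the major vault protein and named after its values were seen, was listed at 0 in 3 libraries and reached 6.59 FPKM.

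Partners of the members that are not analysed here were also measured. HNRNPA1 and HNRNPA2B1, which bind 7SK RNA released from P-TEFb, ranged from 456 to 801 and from 123 to 308 FPKM. HNRNPA1 was 0.67 higher in K700E induction on the log2 scale (SE 0.21; limma adjusted p = 0.973) and has many processed copies that can share its reads. SRP9 and SRP14, the Alu-domain proteins of the signal recognition particle, ranged from 77.7 to 133 and from 25.8 to 93.0 FPKM. SSB, the La protein that binds the 3′ end of new RNA polymerase III transcripts, ranged from 74.1 to 159 FPKM, and PUF60, a splicing factor, from 35.4 to 89.6.

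Among the polymerase subunits POLR2L, shared by all 3 nuclear RNA polymerases, ranged from 44.4 to 213 FPKM and POLR2E, also shared, from 49.5 to 249. POLR2L was 1.69 higher in K700E_induced than in WT_induced on the log2 scale (SE 0.37; limma adjusted p = 0.483), which did not pass. In the initiation and control list GTF3A, the factor for 5S ribosomal RNA genes, ranged from 47.9 to 112 FPKM and MAF1, the repressor of the polymerase, from 37.1 to 75.7. Of the 19 genes of that list 9 had a log2 difference above 0 in K700E induction (median -0.02). In WT induction 3 of 19 did (median -0.40), and 4 of 19 did between the uninduced lines (median -0.38), comparisons that share the WT_uninduced libraries.

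**Figure D5:**
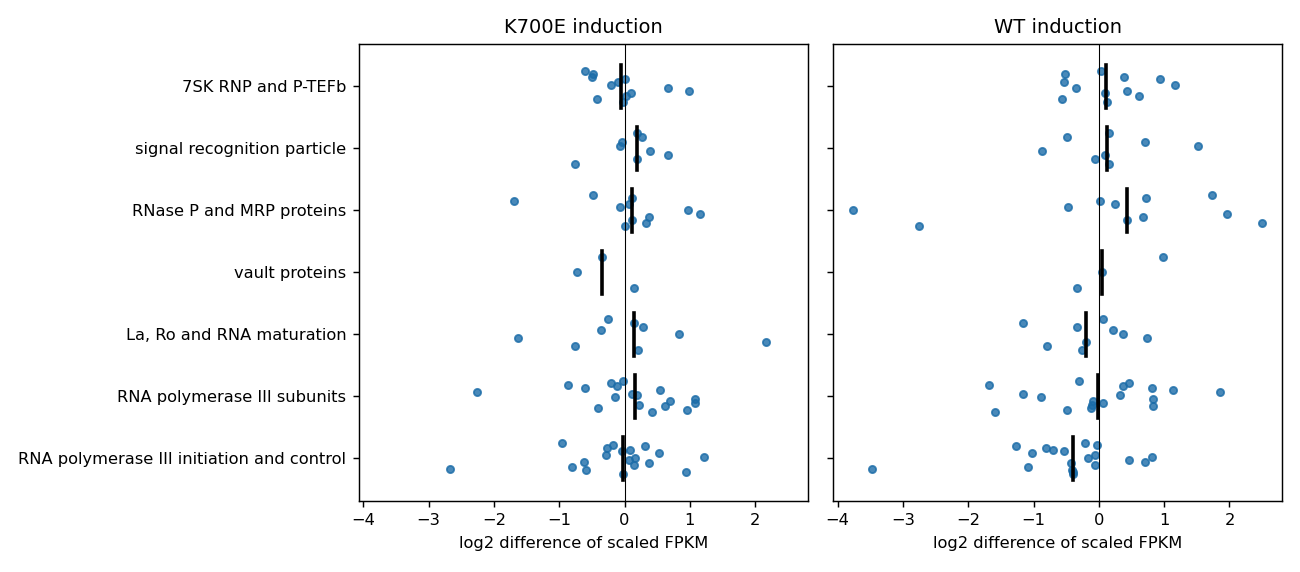
Log2 differences of scaled FPKM of the 80 partner genes tested (points, 1 per gene, spread vertically for clarity) by list, in K700E induction (left) and WT induction (right); black bars are list medians. Medians lie between -0.40 and 0.43 as plotted and between -1.43 and 0.60 under the alternatives tried, where 10 of the 14 change sign, and no gene passed the threshold in either comparison.

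The genes next to RMRP and RPPH1 on the opposite strand did not share their level. CCDC107 starts 272 nt beyond the 5′ end of RMRP. It was listed at 0 in 6 libraries, at 3.02 FPKM in K700E_induced replicate 2 and at 18.8 in WT_induced replicate 2. In K700E_uninduced replicate 2 an unspliced transcript of 231 nt, with no strand given, was assembled within the span of CCDC107. It was listed at 141 FPKM, with 73.1 implied fragments, and being under 300 nt it was added to no gene. PARP2, a DNA repair polymerase for poly(ADP-ribose), starts 203 nt beyond the 5′ end of RPPH1 and ranged from 2.94 to 23.3 FPKM. By a fixed rule the genes most like each member over the 8 libraries were taken from 8779 genes above 0 in all of them. For RMRP these were B4GALNT4 (Pearson r = 0.99), CHCHD2 (0.96) and SH3GLB1 (0.96), and for RPPH1 HLA-E (0.94), DNAJC13 (0.91) and ACTR3 (0.91), with r of log2 values over 8 libraries as a description. The top r among so many genes over so few libraries tends to be high even for unrelated profiles, so no link is read from it. RMRP and RPPH1 correlated with each other at r = 0.318 in log2 FPKM.

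The erythroid markers of K562 were present in every library, among them HBG1 at 1030 to 3271 FPKM and HBZ at 881 to 2431. The defining lymphoid and myeloid markers MS4A1, CD14 and MPO were listed at 0 in all 8 libraries, and CD3E was above 0 in 1 library, at 0.842 FPKM. Of the other markers, LYZ ranged from 6.53 to 24.8 FPKM, EPCAM from 8.17 to 40.3, KRT18 from 171 to 528 and COL1A1 from 0.682 to 11.8, and COL1A2 was above 0 in 1 library. The part of these markers in the members' values was not tested. SF3B1 ranged from 27.3 to 39.5 FPKM, with no separation of induced from uninduced libraries, and the endogenous and transgene transcripts cannot be told apart in these values.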

How the data were processed

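The deposited files list, per library, each transcript's FPKM with its interval and coverage, as the authors' pipeline wrote them. That pipeline used hg19, CASAVA, TopHat and Cufflinks, per the submitters' processing notes. Versions, settings, strandedness and the handling of reads with several matches were not given in the sources used here, and the last can move any value of a multi-copy RNA. The members and lists were chosen with earlier results of these data known. Per-column sample values that were not used numbered 0.

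Members were found by gene name in any library and followed by transcript name in all 8. FPKM was summed per gene over reference transcripts and over assembled spliced transcripts of 300 nt or more assigned by their introns; unspliced assemblies joined a reference model at 90% reciprocal overlap. The files named 33366 of 40767 accessions and a table of current names 7080; of the other 321, shared introns named 253. Libraries were scaled by median-ratio factors (0.979 to 1.03, from 7584 genes). For the 11385 genes with a mean of at least 1 FPKM, log2(FPKM + 0.5) was fitted with limma 3.58.1 in R 4.3.3 (trend, group means, all 8 libraries), with Benjamini-Hochberg adjustment over all genes in each of 5 comparisons and a threshold of 0.05. Such fold changes understate the change of low genes. The script was tested on simulated data.

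Implied fragments are (2 × FPKM / half-width) squared, for an interval taken as 2 SDs of a count. Of 239035 unspliced values with under 200 implied fragments, 24.8% were whole within 0.01. The implied depth is the 99th percentile of fragments per FPKM and kilobase over reference models of 1000 nt or more with a whole number. Its ratio to the deposited coverage per FPKM (3.30 to 4.79) was 6.58 to 6.67 in all libraries. Sequences are GENCODE 29 transcripts, on GRCh38 and not placed on hg19. Genes were named by rule: the members, SF3B1, of each list the genes past the threshold and the 2 highest (up to 3 for short RNAs above 0 in all libraries), and the 3 genes most like RMRP and RPPH1. Tables were made with Python 3.11.15, pandas 2.3.3, numpy 2.4.6, scipy 1.17.1 and Biopython 1.88, and figures with matplotlib 3.10.9. Alternatives were the pseudocount, filter, scaling, trend, samples fitted, a replicate block, leaving out each library and reference transcripts alone.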

Additional observations from a re-analysis of the deposited data

How the results depend on the processing

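RMRP and RPPH1 were past the threshold under none of the alternatives tried, where limma adjusted p ranged from 0.90 to 1, but the sign of their small differences was not stable. Without scaling, K700E induction gave -0.000464 for RMRP and -0.00297 for RPPH1. With quantile normalization, RMRP gave 0.58 in K700E induction, -0.87 in WT induction, 0.87 for the induced lines, -0.58 for the uninduced lines and 1.45 in the interaction. RPPH1 gave 0.88, -0.29, 0.29, -0.88 and 1.17 in the same order. These values follow each gene's rank within a library, not the size of a change in FPKM. The cause of the shifts in rank was not tested. With fragments per 1000000 in place of FPKM, an alternative added after the data were seen, RPPH1 gave 0.051 between the uninduced lines. Leaving out each library in turn, RMRP ranged from -0.10 to 0.11 in K700E induction, -0.33 to 0.37 in WT induction, 0.00902 to 0.41 for the induced lines, -0.13 to 0.58 for the uninduced lines and -0.37 to 0.34 in the interaction. RPPH1 ranged from -0.29 to 0.29 in K700E induction, -0.0059 to 0.13 in WT induction, -0.20 to -0.03 for the induced lines, -0.35 to 0.24 for the uninduced lines and -0.36 to 0.23 in the interaction. A group left with 1 library was assumed to vary like the others.

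Genes past the threshold numbered 3, 2, 4, 1 and 3 in K700E induction, WT induction, the induced lines, the uninduced lines and the interaction. Without a filter on low values they numbered 30, 14, 17, 27 and 16. With the compared groups alone they numbered 1, 0, 2 and 0 in the first 4. Without a trend WT induction, the induced lines and the uninduced lines gave 5, 11 and 7, and with reference transcripts alone WT induction and the uninduced lines gave 10 and 5. Leaving out each library gave 1 to 10, 0 to 11, 4 to 12, 0 to 6 and 2 to 4. Members past the threshold numbered 0 with the compared groups alone in WT induction (1 in the main analysis) and between the induced lines (1), and 0 in the interaction without a filter and without a trend (1). Leaving out each library gave 0 to 1 in these 3, with the induced lines at 0 only without K700E_induced replicate 1, and the interaction at 0 without each of the 6 libraries outside WT_induced. Partner genes past the threshold numbered 0 under every alternative run. Of the 14 medians of the 7 partner lists in the inductions, 10 changed sign under an alternative. In K700E induction the 7SK RNP and P-TEFb list went from -0.06 to 0.60 with reference transcripts alone and the vault proteins from -0.34 to -1.43 without K700E_induced replicate 1.

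Same-numbered libraries deviated with correlations of -0.03 to 0.08, so the numbers were not taken to pair them. With the replicate block 2, 2, 3, 1 and 3 genes passed, and 0, 1, 1, 0 and 1 members. Adding overlapping unspliced transcripts changed no member, because none overlaps one. The sum of RN7SL1 and RN7SL2 was not run, and the sum of the 3 vault RNAs equals VTRNA1-3. Depth limits VTRNA1-3, where 3 implied fragments carry the value in WT_induced replicate 2. SNAR-A1 is limited by its wide intervals, where no library exceeds 3.11 implied fragments.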

Other observations

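In WT_uninduced replicate 1 the authors' software assembled an unspliced transcript of 76 nt at chr5:140088056-140088131 (hg19, plus strand), 2730 nt before VTRNA1-1. It was listed at 5399766 FPKM with an interval of 4327139 to 6472393, which implies 101 fragments, and no unspliced transcript was assembled there in the other 7 libraries. It lies in no member and in no gene value used above. Within 3000 nt of VTRNA1-1 the only other assembled unspliced transcript was one of 319 nt in K700E_uninduced replicate 1, at 22.7 FPKM and 52.7 implied fragments. As with VTRNA1-3, the shorter model carried a far higher FPKM per implied fragment.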
